A study of Mus musculus with 25 samples.

Results

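Slc1a2, Slc1a3, Glul, Apoe and Aldoc are genes through which astrocytes handle glutamate, lipid and sugar. They were chosen by symbol, and all 5 were found among the 9931 genes with a symbol that the deposited table holds. Their levels were followed in 25 RNA-seq libraries made from cells that were sorted as neurons from the mouse sensorimotor cortex, with or without the transcriptional repressor REST, after sham surgery or spinal cord injury (SCI). Every mouse, controls included, carried homozygous floxed Rest alleles (REST flx/flx) and the Cre-dependent STOP flx/flx TdTomato reporter. The labels give the strain as C57BL/6 and the methods describe young adults of both sexes, 4 to 6 weeks old. WT mice received AAV-Syn-GFP, which makes infected cells express GFP. REST cKO mice received AAV-Syn-Cre, which deletes Rest and switches on tdTomato. Both viruses use the human synapsin promoter, so each genotype describes the infected and sorted cells and not the whole cortex, and both the virus and the fluorescent protein differ between the genotypes. SCI was a complete crush at thoracic level 10, and cells were collected 1, 3 or 7 days later. There were 4 libraries of WT sham, 3 for each of the 3 WT times after SCI, 3 of REST cKO sham, and 2, 4 and 3 for the REST cKO times in that order, which makes 8 groups. The study counts its replicates as mice, but no label ties a library to a mouse, so the errors and p-values below measure the spread between libraries.

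Glutamate released at synapses is cleared mainly by astrocytes. Slc1a2 (GLT-1) and Slc1a3 (GLAST) encode the transporters that carry it in, and Glul encodes glutamine synthetase, which converts it to glutamine that neurons take back and reuse. Apoe encodes apolipoprotein E, which carries cholesterol and other lipids out of astrocytes and is also made by microglia, and Aldoc encodes the brain form of the glycolytic enzyme aldolase. In healthy cortex these RNAs are far more abundant in glia than in neurons.

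The libraries were sorted and labelled as cortical motor neurons, and all 12 neuron markers listed for this comparison were in the table, among them Snap25, a synaptic protein gene, whose level ranged from 1.13 to 3.64. All levels here are the deposited log2 values, for which no zero point is stated. They span -4.82 to 5.16 over all genes and hold no read totals, and the methods state an average depth only, so no counting error of a single library can be given. Markers of other cells were in the same libraries. All 14 microglia markers were in the table, with a mean level of 2.60 to 3.31 per library. The mean level of the neuron markers was 0.52 to 2.45. Of 39 astrocyte markers, which do not include the 5 genes, 33 were in the table, with a mean level of 0.23 to 2.15 per library, while Gfap, Aqp4, Aldh1l1, Slc25a18, Acsbg1 and Agt were not in the table used here. Rest, the deleted gene, overlapped between the genotypes in sham and at day 1, but not at days 3 and 7. Its level was -1.55 to -0.26 in WT sham and -2.65 to -0.52 in REST cKO sham, and -1.35 to 0.71 and -0.43 to -0.40 at day 1. At day 3 it was 0.56 to 2.88 in WT against -1.61 to -0.04 in REST cKO, and at day 7 it was 0.26 to 2.74 against -1.21 to -0.33. The deposited Rest values still correlate with one of the sequencing components that the authors regressed out (absolute r = 0.326), unlike those of the 5 genes. The share of all values under -2 was 2.77% to 29.5% per library and was highest in WT SCI day 3 replicate 5. In bulk RNA of sorted cells, fewer cells of a type and less RNA per cell cannot be told apart.

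On GRCm38, Slc1a2 lies on the plus strand at chr2:102658659-102790784, Slc1a3 on the minus strand at chr15:8634124-8710764 and Glul on the plus strand at chr1:153899944-153909723. Apoe lies on the minus strand at chr7:19696109-19699188 and Aldoc on the plus strand at chr11:78322968-78327781. All are protein-coding genes, and the library kit reads the 3′ end of each RNA. The annotated antisense gene Gm13872 overlaps Slc1a2, Gm37310 overlaps Slc1a3 on the same strand, and Teddm2 (opposite strand) and Mir8114 (same strand) overlap Glul. The bases just upstream of a transcript start are shown for Slc1a2, Slc1a3 and Glul, because they encode the glutamate uptake and conversion steps and because REST binds a known DNA element. They are RefSeq promoter windows of GRCm38.p6, written 5′ to 3′ along the strand of the gene and ending 1 base before the start. The Slc1a2 window is chr2:102706188-102706437 on the plus strand, the Slc1a3 window chr15:8710808-8711057 on the minus strand and the Glul window chr1:153899679-153899928 on the plus strand. Capitals mark the motifs found by a search of both strands: GGACAGC, the right part of the REST element, TATAAA, and CCAAT.

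Slc1a2: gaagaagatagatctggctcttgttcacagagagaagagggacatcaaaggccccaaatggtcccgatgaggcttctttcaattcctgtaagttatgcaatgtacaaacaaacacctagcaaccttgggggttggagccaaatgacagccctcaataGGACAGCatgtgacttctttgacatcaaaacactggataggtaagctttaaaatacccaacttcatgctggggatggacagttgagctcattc
Slc1a3: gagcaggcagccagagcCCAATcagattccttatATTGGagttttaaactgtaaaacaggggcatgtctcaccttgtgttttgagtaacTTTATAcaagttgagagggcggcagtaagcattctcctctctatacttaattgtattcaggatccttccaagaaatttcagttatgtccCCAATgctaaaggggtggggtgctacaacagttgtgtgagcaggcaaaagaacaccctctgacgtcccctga
Glul: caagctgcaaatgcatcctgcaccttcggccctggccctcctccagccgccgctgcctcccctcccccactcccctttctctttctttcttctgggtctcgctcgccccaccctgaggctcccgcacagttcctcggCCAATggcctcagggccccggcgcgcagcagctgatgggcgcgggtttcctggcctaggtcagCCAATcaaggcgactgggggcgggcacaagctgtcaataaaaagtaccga

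The Slc1a2 window ends at an internal start of the gene, 47779 bases downstream of its outermost annotated start. It holds GGACAGC, which is present in 5.28% of 32851 promoter windows. The left part of the element, TTCAGCACC, is present in 0.301% of the windows and in 0 of the 8 windows listed for the 5 genes. CCAAT occurs in the Slc1a3 and Glul windows and in 33.8% of all windows, and TATAAA in 2 of the 8 windows (Slc1a3 and 1 of the Apoe windows) and in 12.4% of all. These matches describe letters only.

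Over the 25 libraries the level of Slc1a2 ran from 1.29 to 3.96 (median 2.72), that of Slc1a3 from 1.75 to 3.52 (median 2.57) and that of Glul from 2.31 to 3.42 (median 2.99). Apoe ran from 3.10 to 4.48 (median 3.91) and Aldoc from -2.74 to 3.43 (median 1.10). Apoe and Glul were the steadiest of the 5, and Aldoc the most variable. The residual standard deviation of a gene between libraries of a group, on the log2 scale, was 0.26 for Apoe and Glul, 0.35 for Slc1a3, 0.52 for Slc1a2 and 1.17 for Aldoc, against a median of 1.16 over all genes. Genes with a mean level within 0.25 of each member's had a median residual standard deviation of 0.18 (Apoe), 0.28 (Glul), 0.35 (Slc1a3), 0.35 (Slc1a2) and 0.84 (Aldoc), so Glul alone lay below the median for its level, and Slc1a2 and Aldoc lay furthest above it.

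**Figure D1:**
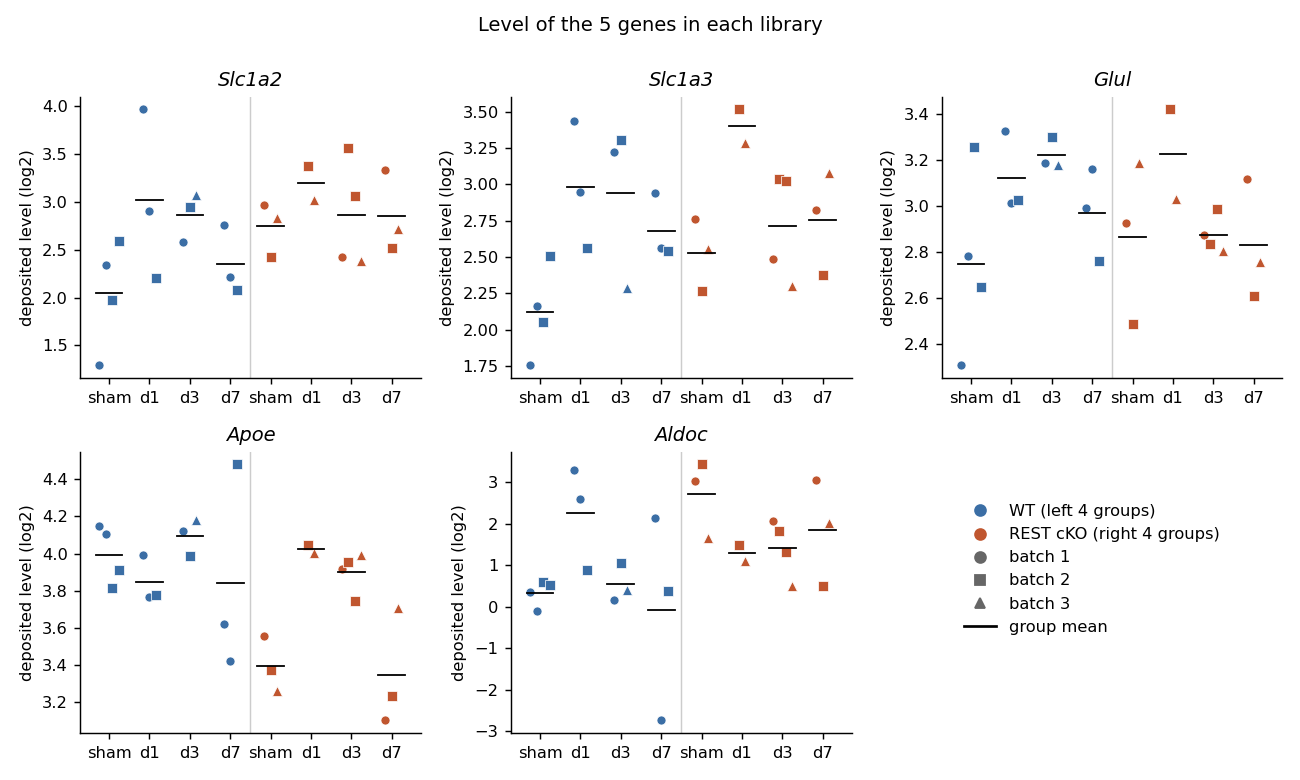
Deposited log2 level (vertical axis) of each of the 5 genes in the 25 libraries, by group (horizontal axis: sham and days 1, 3 and 7 after SCI); each point is 1 library, its shape is the batch and the bar is the group mean. WT sham has the lowest mean for Slc1a2 (2.05), Slc1a3 (2.12) and Glul (2.75), and REST cKO sham sits below every WT sham library for Apoe and above every one for Aldoc.

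Differences between groups were fitted with limma over all 25 libraries and 9931 genes, with the authors' 2 sequencing components as covariates, and called at an adjusted p under 0.1. In 14 comparisons, which make 70 tests of the 5 genes, 0 passed, with adjusted p from 0.336 to 0.999, while 20 of the 70 had an unadjusted p under 0.05. Very few genes of any kind passed. The share of all genes called was 0.0101% in WT at day 3 against sham (Foxp1), 0.0201% in REST cKO at day 3 against sham (N4bp2l2 and Rpl3-ps1), 0.0302% in REST cKO against WT in sham (N4bp2l2, Rpl3-ps1 and Igha) and 0.0201% in the genotype by injury interaction at day 7 (Phf14 and Rxrb). These genes were named after their values were seen. In the other 10 comparisons 0 genes passed (0%). At an unadjusted p under 0.05, the count of the 5 genes stood beside the share of all genes as follows. Against WT sham, the WT libraries gave 3 of 5 at day 1 (6.43% of all genes), 3 at day 3 (6.9%), 1 at day 7 (6.89%) and 3 for the mean of the 3 days (6.04%). Against REST cKO sham, the REST cKO libraries gave 2 of 5 at day 1 (5.29%), then 1 at day 3 (4.65%), and 0 at the last time (5.67%). REST cKO against WT gave 4 of 5 in sham (6.91%), 0 at day 1 (3.81%) and day 3 (6.37%), 2 at day 7 (9.95%) and 0 for the mean of the 3 days (6.77%). The interaction gave 1 of 5 at day 3 (5.15%) and 0 at day 7 (6.35%). The WT injury and sham genotype comparisons, which share the WT sham libraries, thus held most of the low p-values of these genes. Single libraries weighed on most values: with 1 library left out in turn, 49 of the 70 moved by over 1.5 times or changed sign at least once, and the ranges are given beside the results where they matter. In each result below, the fitted difference can depart from the difference of the group means, because the components enter the fit. Between the sham groups, for Slc1a3, the fitted value was 0.65 and the difference of means 0.41.

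The means of both transporter genes were above WT sham in each injured WT group, though no difference passed the threshold. The level of Slc1a3 was 1.75, 2.16, 2.05 and 2.51 in the WT sham libraries, 3.44, 2.95 and 2.56 at day 1, 3.22, 3.31 and 2.28 at day 3, and 2.94, 2.57 and 2.54 at day 7. All day 1 and day 7 libraries lay above all sham libraries, and at day 3 only replicate 22 lay within the sham range. The fitted log2 difference from sham was 0.92 ± 0.29 (SE), then 1.03 ± 0.31, then 0.66 ± 0.28, with limma adjusted p of 0.570, 0.537 and 0.624. Groups that did not overlap, with the injured one higher, were found for 4.34% of all genes at day 1 and 2.62% at day 7. Within batch 1 the differences of means, in the same order of days, were 1.23, 1.26 and 0.79, and within batch 2 they were 0.28, 1.03 and 0.26. Batch 3 holds no WT sham library. Averaged over the 3 days, SCI was 0.87 ± 0.22 above sham (95% interval 0.41 to 1.32, adjusted p = 0.483, and 0.231 to 0.999 under the alternatives), against a median difference of -0.02 over all genes.

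Slc1a2 showed the same order of WT means with more spread. Its level was 1.29, 2.34, 1.97 and 2.59 in sham, 3.96, 2.90 and 2.20 at day 1, 2.58, 2.94 and 3.07 at day 3, and 2.76, 2.22 and 2.08 at day 7. Each injured group overlapped sham, by 1 library at day 1, by 1 at day 3 and by 2 at day 7. The fitted difference was 1.06 ± 0.37, 1.01 ± 0.40 and 0.39 ± 0.36 at the 3 times, with limma adjusted p of 0.636, 0.629 and 0.887. The day 1 value rests on single libraries: it was 0.59 without WT SCI day 1 replicate 1, and the difference of means was 1.61 within batch 1 but -0.08 within batch 2. So does the day 7 value, which was 0.15 without WT sham replicate 3, with a difference of means of 0.67 within batch 1 and -0.20 within batch 2. At day 3 the differences of means were 0.76 and 0.66.

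In the REST cKO libraries the transporter genes started from a higher sham mean and stood apart from it only at day 1. Slc1a3 was 2.76, 2.26 and 2.55 in sham, 3.52 and 3.29 at day 1, 2.49, 3.04, 3.02 and 2.30 at day 3, and 2.82, 2.37 and 3.08 at day 7. Slc1a2 was 2.97, 2.42 and 2.83 in sham, 3.37 and 3.02 at day 1, 2.42, 3.57, 3.06 and 2.38 at day 3, and 3.33, 2.52 and 2.72 at day 7. Both day 1 libraries lay above all sham libraries for both genes, an order found for 13.9% of all genes with these group sizes. The fitted differences at day 1 were 0.86 ± 0.32 for Slc1a3 (adjusted p = 0.886) and 0.45 ± 0.42 for Slc1a2 (adjusted p = 0.961), and those at days 3 and 7 lay between -0.07 and 0.11.

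REST cKO sham exceeded WT sham in mean for both transporter genes, by a fitted 0.92 ± 0.41 for Slc1a2 (adjusted p = 0.677) and 0.65 ± 0.32 for Slc1a3 (adjusted p = 0.723). The groups overlapped for both genes. Within batch 1 the differences of means were 1.15 and 0.80, and within batch 2 they were 0.14 and -0.02. After SCI the genotype differences of Slc1a2 were 0.30, -0.16 and 0.55 in the order of days, and those of Slc1a3 were 0.59, -0.40 and 0.10, with overlapping groups in each case. The day 1 value of Slc1a2 ran from 0.0035 without WT SCI day 1 replicate 11 to 0.83 without replicate 1 of that group. Its day 7 value ran from 0.34 without REST cKO SCI day 7 replicate 2 to 0.73 without replicate 13 of that group, and was 0.23 with a term for sex. The day 3 value of Slc1a3 ran from -0.68 without WT SCI day 3 replicate 22 to -0.22 without replicate 5 of that group. The interaction, which asks whether the injury difference itself differs between genotypes, was -1.08 ± 0.62 for Slc1a2 and -1.05 ± 0.48 for Slc1a3 at day 3, with adjusted p of 0.957 and 0.950, so that it did not pass. At their smallest, the alternatives that left out no library gave -0.70 and -0.63 at day 3. At day 7 the interaction was -0.37 and -0.55, and without REST cKO SCI day 7 replicate 13 it was -0.12 and -0.27. Markers of some cell types lay below 0 in the same day 3 interaction: 0 of 12 neuron markers (median -1.40), 10 of 33 astrocyte markers (median -0.76) and 3 of 10 endothelial markers (median -0.82) were above 0, against a median of 0.03 over all genes. Microglia markers (12 of 14 above 0, median 0.32) and oligodendrocyte markers (6 of 9, median 0.13) lay the other way. At day 7 the neuron median was -0.42, the astrocyte median -0.39 and the endothelial median -0.54, while the microglia median was 0.27 and the oligodendrocyte median -0.21, against 0.19 over all genes. Their part in the transporter interactions was not tested.

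**Figure D2:**
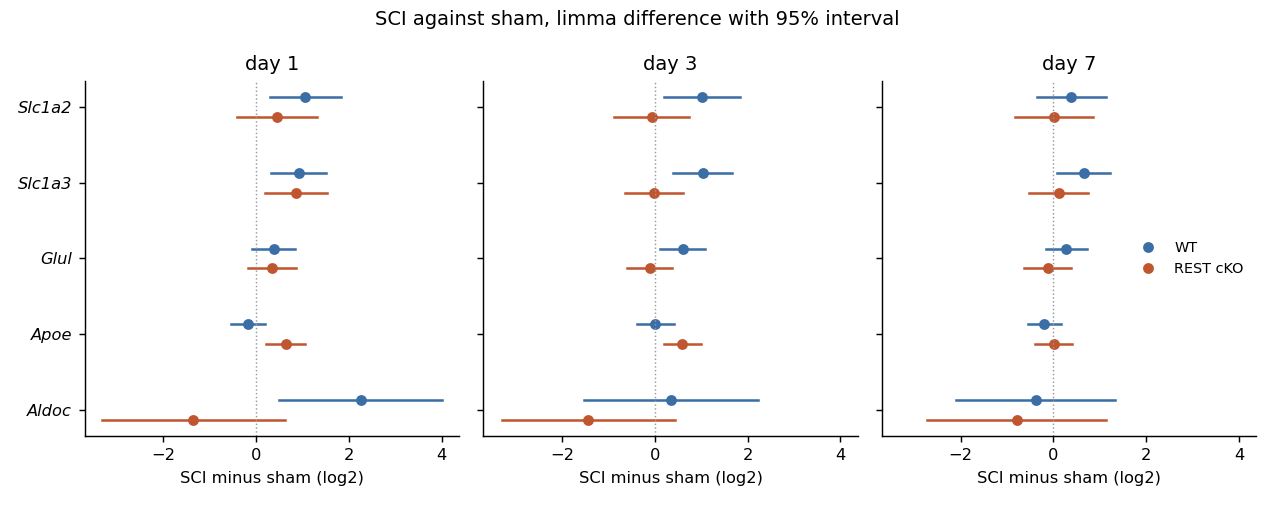
Fitted limma difference between SCI and sham (horizontal axis, log2) for the 5 genes (vertical axis) at days 1, 3 and 7, in WT (blue) and REST cKO (orange); points are estimates and bars 95% intervals. The Slc1a3 estimates in WT are 0.92, 1.03 and 0.66, and the 2 genotypes take opposite signs at day 1 for Apoe and Aldoc; none of these differences passed the adjusted threshold.

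Glul, which works downstream of the transporters, also had its lowest WT mean in sham, over a narrower range. In WT its level was 2.31, 2.78, 3.26 and 2.64 in sham, 3.32, 3.01 and 3.03 at day 1, 3.19, 3.30 and 3.18 at day 3, and 2.99, 3.16 and 2.76 at day 7. All groups overlapped sham, at days 1 and 3 only through WT sham replicate 14, at 3.26. The fitted difference was 0.38 ± 0.22, 0.60 ± 0.24 and 0.28 ± 0.22 in that order, with adjusted p of 0.855, 0.629 and 0.845. Without WT sham replicate 3 these values were 0.21, 0.46 and 0.14, and without WT sham replicate 14 they were 0.53, 0.82 and 0.49. The differences of means were 0.62, 0.64 and 0.53 within batch 1 and 0.08, 0.35 and -0.19 within batch 2. In REST cKO Glul was 2.92, 2.48 and 3.19 in sham, 3.42 and 3.03 at day 1, 2.87, 2.84, 2.98 and 2.80 at day 3, and 3.12, 2.61 and 2.76 at day 7. The groups overlapped at all 3 days, and the fitted differences were 0.34, -0.11 and -0.12, the first of which ran from 0.19 without REST cKO sham replicate 18 to 0.53 without replicate 23 of that group. At day 3 all 4 REST cKO libraries (at most 2.98) lay below all 3 WT libraries (at least 3.18), an order that 3.99% of all genes shared. That difference was -0.45 ± 0.23 (adjusted p = 0.796), and it was -0.31, -0.39 and -0.37 within batches 1, 2 and 3. In the same comparison 1 of 12 neuron markers was above 0 (median -0.40), as were 4 of 10 endothelial markers (median -0.37) and 21 of 33 astrocyte markers (median 0.33), against a median of 0.05 over all genes. Their part in the Glul difference was not tested.

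Apoe had another pattern: its mean was lower in REST cKO sham than in WT sham, and nearer to that of WT at days 1 and 3. Its level was 4.15, 4.10, 3.81 and 3.91 in WT sham and 3.55, 3.37 and 3.26 in REST cKO sham. All 3 REST cKO libraries lay below all 4 WT libraries, which 3.85% of all genes did in sham. The fitted difference was -0.70 ± 0.20 (95% interval -1.11 to -0.29), with an adjusted p of 0.430 and a range of 0.183 to 0.757 over the alternatives. It was -0.57 within batch 1 and -0.49 within batch 2. The markers of microglia, which also make Apoe, were lower in the same comparison: 13 of 14 had a fitted difference below 0, their median was -0.36 against 0.04 for all genes, and their mean level was 2.73 to 2.91 in REST cKO sham against 3.03 to 3.20 in WT sham. Their part in the Apoe difference was not tested.

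After SCI, Apoe in REST cKO was 4.05 and 4.00 at day 1, 3.92, 3.96, 3.75 and 3.99 at day 3, and 3.10, 3.23 and 3.71 at day 7. Every day 1 and day 3 library lay above every REST cKO sham library, and day 7 overlapped sham. Such an order, injured higher, was found for 13.9% of all genes at day 1 and 3.81% at day 3. The fitted difference from sham was 0.64 ± 0.20, 0.60 ± 0.19 and 0.00 ± 0.20 in that order, with adjusted p of 0.886, 0.816 and 0.998. The day 3 value was 0.92 without REST cKO sham replicate 6, and after quantile normalization the day 1 and day 3 values were 0.38 and 0.37. The microglia markers also lay higher at day 3, when 13 of 14 were above REST cKO sham (median 0.31 against 0.03 for all genes, and 4 with an unadjusted p under 0.05, beside 4.65% of all genes) and their mean level was 3.05 to 3.25 against 2.73 to 2.91. Their median was 0.05 at day 1, when that of all genes was 0.29, and 0.23 at day 7, when that of all genes was 0.07, and their part in the Apoe values was not tested. In WT, Apoe was 3.99, 3.77 and 3.78 at day 1, 4.12, 3.99 and 4.18 at day 3, and 3.62, 3.42 and 4.48 at day 7, with fitted differences from sham of -0.17, 0.01 and -0.19 and overlapping groups throughout.

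Between the genotypes, both REST cKO day 1 libraries were above all WT day 1 libraries for Apoe, as for 12.9% of all genes, but by 0.10 ± 0.23 only. At day 7 the fitted difference was -0.51 ± 0.19 (adjusted p = 0.336). The groups overlapped, and the value rested on WT SCI day 7 replicate 12, at 4.48, without which it was -0.17. Sex and genotype cannot be told apart within the day 7 groups, since the 3 WT libraries are female and the 3 REST cKO libraries male. With a term for sex, which draws on the other groups, the day 7 difference was -0.50. The day 3 genotype difference was -0.12, with overlap. It ran from -0.25 without WT SCI day 7 replicate 12 to -0.02 without REST cKO sham replicate 6.

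**Figure D3:**
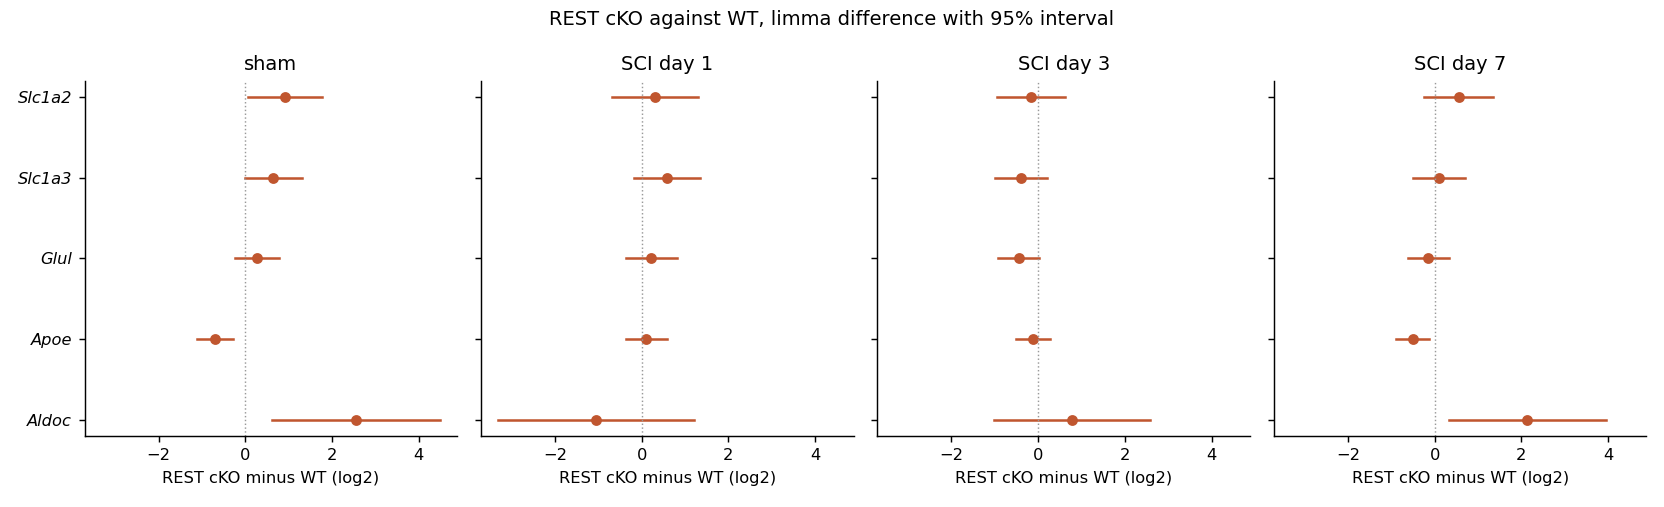
Fitted limma difference between REST cKO and WT (horizontal axis, log2) for the 5 genes (vertical axis) in sham and at days 1, 3 and 7 after SCI; points are estimates and bars 95% intervals. Apoe is below 0 in sham (-0.70) and at day 7 (-0.51), Aldoc is above 0 there (2.55 and 2.14), with intervals that do not reach 0, and none passed the adjusted threshold.

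Aldoc had the largest errors of the 5, and the largest fitted difference in WT at day 1 and between the genotypes in sham. Its level was 0.35, -0.10, 0.59 and 0.52 in WT sham and 3.03, 3.43 and 1.66 in REST cKO sham. Every REST cKO library was above every WT library, which 4.02% of all genes showed in this direction. The fitted difference was 2.55 ± 0.94 (95% interval 0.61 to 4.50, adjusted p = 0.562, and 0.226 to 0.793 over the alternatives). It was 2.90 within batch 1 and 2.88 within batch 2. The 3 REST cKO sham libraries are male and the WT sham libraries are of both sexes, and with a term for sex the difference was 2.28.

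In WT, Aldoc was 3.29, 2.58 and 0.88 at day 1, all above sham as for 4.34% of all genes, then 0.16, 1.04 and 0.40 at day 3 and 2.13, -2.74 and 0.38 at day 7, both overlapping sham. The fitted differences were 2.25 ± 0.86 (adjusted p = 0.656), 0.35 ± 0.91 and -0.38 ± 0.83. The day 1 difference of means was 2.81 in batch 1 and 0.33 in batch 2. The day 7 value turned with 1 library: without WT SCI day 7 replicate 7, at -2.74, it was 1.21.

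In REST cKO, Aldoc was 1.49 and 1.10 at day 1, below every sham library, which 6.46% of all genes were. It was 2.05, 1.82, 1.33 and 0.49 at day 3 and 3.06, 0.49 and 2.02 at day 7, both overlapping sham. The fitted differences from sham were -1.35 ± 0.96, -1.43 ± 0.90 and -0.79 ± 0.93 (adjusted p from 0.944 to 0.999). Most neuron markers also lay below REST cKO sham at each time, and most astrocyte markers at day 3, as given further on. Their part in the Aldoc values was not tested. The day 1 value ran from -1.81 without REST cKO sham replicate 23 to -0.80 without replicate 18 of that group. Against WT, the REST cKO differences were -1.05 ± 1.10, 0.78 ± 0.88 and 2.14 ± 0.88 in the order of days, with adjusted p of 0.999, 0.942 and 0.406 and overlap each time. The day 1 value ran from -1.53 without REST cKO SCI day 7 replicate 13 to -0.36 without WT SCI day 1 replicate 1. Batch 2 alone holds both day 1 groups, with 1 library each, and there the difference was 0.60. The day 3 value ran from 0.48 without WT SCI day 7 replicate 7 to 1.07 without REST cKO SCI day 7 replicate 13. The day 7 difference of means was 3.37 in batch 1 and 0.11 in batch 2, and the fitted value was 0.61 without WT SCI day 7 replicate 7.

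Over the 3 injured days together, 0 of the 5 genes passed between the genotypes. The fitted REST cKO minus WT difference was 0.23 (95% interval -0.22 to 0.68) for Slc1a2, 0.10 (-0.25 to 0.44) for Slc1a3, -0.12 (-0.39 to 0.15) for Glul, -0.17 (-0.39 to 0.05) for Apoe and 0.62 (-0.41 to 1.66) for Aldoc, with 9 libraries on each side. These intervals allow differences up to their bounds. Leaving out 1 library moved the value to between 0.09 (without WT SCI day 1 replicate 11) and 0.43 (without WT SCI day 1 replicate 1) for Slc1a2. For Glul it moved to between -0.17 (without REST cKO SCI day 7 replicate 2) and -0.08 (without WT SCI day 1 replicate 1). For Apoe it moved to between -0.24 (without REST cKO SCI day 7 replicate 26) and -0.05 (without WT SCI day 7 replicate 12), and for Aldoc to between 0.17 (without WT SCI day 7 replicate 7) and 0.97 (without replicate 4 of that group). Neighbouring groups in the order of means were rarely separated by more than their spread. For Glul and Apoe no 2 neighbouring groups differed by more than the larger of their SDs. For Slc1a2, REST cKO sham (2.74 ± 0.29, SD, n = 3) stood above WT SCI day 7 (2.35 ± 0.36, n = 3) by more than that. For Slc1a3, REST cKO sham (2.53 ± 0.25, n = 3) stood above WT sham (2.12 ± 0.31, n = 4), and for Aldoc, REST cKO SCI day 1 (1.29 ± 0.27, n = 2) stood above WT SCI day 3 (0.54 ± 0.46, n = 3).

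Other genes of the same pathways were taken from lists chosen by role, and 0 of their genes passed in any of the 14 comparisons. In the glutamate list, 18 of 21 genes were in the table (Slc1a6, Pcx and Grm3 were not). REST cKO sham was above WT sham for 16 of the 18, with a median difference of 0.78, and 1 of them had an unadjusted p under 0.05, beside 6.91% of all genes. At day 1 REST cKO was above WT for 10 of the 18 (median 0.05 against 0.19 for all genes), and at day 3 for 12 (median 0.62 against 0.05). At day 7 it was above WT for 17 of 18, with a median of 0.68 against 0.23 for all genes, and 3 had an unadjusted p under 0.05, beside 9.95% of all genes. In WT against sham, 14 of the 18 genes were above 0 at day 1 (median 0.47), 9 at day 3 (median -0.23) and 6 at day 7 (median -0.50), and 6 for the mean of the 3 days (median -0.22), where the medians over all genes were 0.12, 0.01, -0.12 and -0.02. For the lipid list (31 of 32 genes, without Nr1h3) the median REST cKO difference was 0.12 in sham and 0.08 at day 7. For the glycolysis list (22 of 25 genes) it was 0.31 and 0.20, and for all genes 0.04 and 0.23.

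At day 7, 10 genes of these pathways or of astrocytes were followed singly. Among glutamate genes, the REST cKO minus WT difference was 2.07 ± 1.21 for Slc1a1, the neuronal glutamate transporter, 0.66 ± 0.39 for Slc17a7, which fills synaptic vesicles with glutamate, and 0.16 ± 0.47 for Glud1, glutamate dehydrogenase. Among lipid genes it was -1.67 ± 0.46 for Abca1, which loads cholesterol onto apolipoprotein E, -0.09 ± 0.32 for the receptor Lrp1 and 0.42 ± 0.75 for the apolipoprotein Clu. Abca1 was the only one of these lipid genes without overlap: it was between 0.14 and 2.45 in REST cKO and between 2.59 and 3.70 in WT, with an adjusted p of 0.232, and 4.38% of all genes were lower without overlap. Of the glycolytic genes, Eno2, the neuronal enolase, differed by 1.41 ± 0.70 (adjusted p = 0.508) and Aldoa by -0.09 ± 0.33. The astrocyte genes Gja1, a gap junction protein, and S100b, a calcium-binding protein, differed by 0.67 ± 0.51 and 0.59 ± 1.23. Eno2 did not overlap between the genotypes, with REST cKO higher, as for 8.03% of all genes.

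Of the astrocyte markers 0 passed in any comparison, and their medians lay above 0 in WT at day 1 against sham and in both genotype comparisons given here. In REST cKO at day 3 against sham their median lay below 0. In REST cKO against WT sham, 31 of 33 astrocyte markers had a difference above 0, with a median of 1.02 against 0.04 for all genes. Their mean level per library was 1.14 to 1.93 in REST cKO sham and 0.24 to 0.75 in WT sham, and their summed level on the linear scale was 108 to 159 and 76.1 to 84.6. All 12 neuron markers were also above 0 there, with a median of 0.94. In WT at day 1 against sham, 30 of 33 astrocyte markers were above 0 (median 1.08), as were 10 of 12 neuron markers (median 0.77) and 9 of 9 oligodendrocyte markers (median 2.05), whereas 0 of 14 microglia markers were, against a median of 0.12 over all genes. The mean level of the oligodendrocyte markers was 2.55 and 2.11 in WT SCI day 1 replicates 8 and 11 but -0.58 in replicate 1, within the sham range of -1.26 to 0.42. At day 3, 24 of 33 astrocyte markers (median 0.50) and 11 of 12 neuron markers (median 0.74) were above WT sham, as were 8 of 10 endothelial markers (median 0.80), against 0.01 over all genes. At day 7, 26 of 33 astrocyte markers (median 0.48) and 8 of 10 endothelial markers (median 0.41) were above WT sham, against -0.12 over all genes, and 6 of 12 neuron markers were. In REST cKO at day 1 against sham, 9 of 9 oligodendrocyte markers (median 1.55) were above 0 and 1 of 12 neuron markers (median -0.51) was, while the astrocyte median of 0.30 was close to the 0.29 over all genes. At day 3 in REST cKO, 10 of 33 astrocyte markers (median -0.27) and 0 of 12 neuron markers (median -0.72) were above sham. There 13 of 14 microglia markers were (median 0.31), against 0.03 over all genes. At day 7 in REST cKO, 19 of 33 astrocyte markers (median 0.06) and 2 of 12 neuron markers (median -0.44) were above sham. The median over all genes was 0.07 in that comparison. At day 7, 25 of 33 astrocyte markers were higher in REST cKO than in WT (median 0.66) and 11 of 12 neuron markers (median 0.59), against 0.23 over all genes. Cldn5 and 9 other endothelial markers had a median difference of 0.60 in sham between the genotypes. The part of these markers in the differences of Slc1a2, Slc1a3, Glul and Aldoc was not tested.

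**Figure D4:**
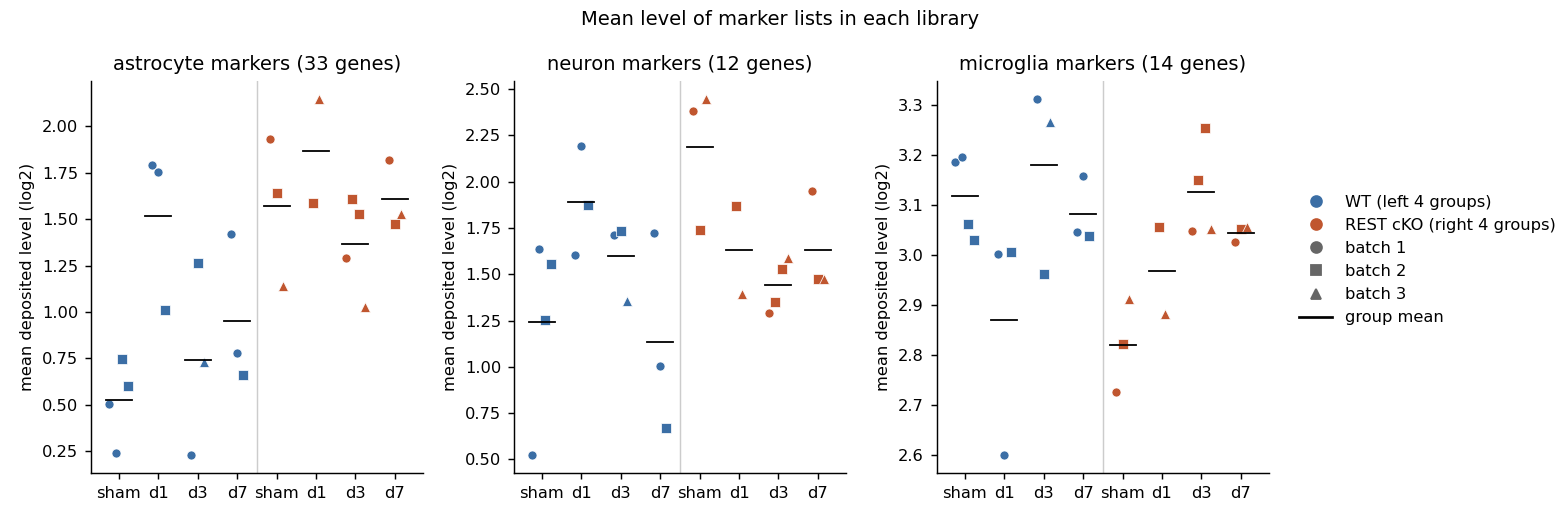
Mean deposited log2 level (vertical axis) of the astrocyte, neuron and microglia markers in each of the 25 libraries, by group (horizontal axis); each point is 1 library, its shape is the batch and the bar is the group mean. The astrocyte mean is 0.24 to 0.75 in WT sham and 1.14 to 1.93 in REST cKO sham, and the microglia mean lies between 2.60 and 3.31 in every library.

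Across the 25 libraries the 2 transporter genes varied together. Pearson's r between Slc1a2 and Slc1a3 was 0.77 and Spearman's rho 0.70, with adjusted permutation p of 0.0001, the smallest the permutations can give over 10 relations, and 0.0021. The relation was 0.85 within batch 1 and 0.83 within batch 2 (10 libraries each), 0.66 without the 2 libraries farthest from the median, and 0.68 after the group means were subtracted. Slc1a3 and Glul had r = 0.59 (rho = 0.52, adjusted permutation p = 0.00985 and 0.0276), with 0.90 in batch 1 and 0.56 in batch 2, 0.47 without the 2 farthest libraries and 0.37 after group means were subtracted (unadjusted permutation p = 0.0683), so part of this relation lay between groups. Slc1a2 and Glul had r = 0.55 (rho = 0.44, adjusted permutation p = 0.0155 and 0.0563), with 0.80 in batch 1, 0.25 in batch 2 and 0.48 after group means were subtracted, but 0.29 without WT SCI day 1 replicate 1 and WT sham replicate 3, so over all libraries this relation rests on those. Slc1a2 and Aldoc had r = 0.52 (rho = 0.55, adjusted permutation p = 0.0199 and 0.0264), with 0.66 and 0.32 in batches 1 and 2, 0.46 without the 2 farthest and 0.45 after group means were subtracted. Apoe did not follow the others, with r from -0.26 to 0.06 in its 4 pairs, although its rho with Aldoc was -0.50 (adjusted permutation p = 0.0312), and r was 0.21 in that pair after group means were subtracted. In all, 4 of 10 pairs passed 0.1 by Pearson's r.

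Of 25 relations between a member and a marker list, a family of tests added after the values were seen, 11 passed 0.1. Aldoc had r = 0.71 with the astrocyte mean (rho = 0.82, adjusted permutation p = 0.00125 and 0.00025), 0.79 within batch 1, 0.68 within batch 2, 0.69 without the 2 farthest libraries and 0.63 after group means were subtracted. Slc1a2 had r = 0.64 with the astrocyte mean (rho = 0.66, adjusted permutation p = 0.00662 and 0.00537), 0.71 and 0.68 in batches 1 and 2, 0.69 without the 2 farthest and 0.50 after group means were subtracted. Slc1a3 had r = 0.54 with the astrocyte mean (adjusted permutation p = 0.0271), 0.48 and 0.46 in batches 1 and 2, 0.68 without the 2 farthest and 0.40 after group means were subtracted. Apoe had r = -0.43 with the astrocyte mean (adjusted permutation p = 0.0732), with -0.58 and -0.48 in batches 1 and 2, -0.35 without the 2 farthest and -0.21 after group means were subtracted. Glul did not pass with the astrocyte mean (r = 0.16).

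The relations were not limited to astrocyte markers. Like those with astrocyte markers, the others were smaller in size under at least 1 of the same checks. With the endothelial mean, Slc1a3 had r = 0.56 (adjusted permutation p = 0.0266), 0.64 and 0.73 within batches 1 and 2, 0.50 without the 2 farthest and 0.47 after group means were subtracted. Slc1a2 had r = 0.52 (adjusted permutation p = 0.0304), 0.48 and 0.65 in batches 1 and 2, 0.62 without the 2 farthest but 0.35 after group means were subtracted, and Glul had r = 0.49 (adjusted permutation p = 0.0317, but 0.149 by rho), 0.56 and 0.52 in the batches, and 0.39 and 0.44 under the same checks. With the neuron mean, Slc1a2 had r = 0.50 (adjusted permutation p = 0.0317, but 0.149 by rho), with 0.69 and 0.36 in batches 1 and 2 and 0.42 after group means were subtracted, but 0.22 without WT SCI day 7 replicate 12 and WT sham replicate 3, so over all libraries it rests on those. Apoe had r = -0.49 with the neuron mean (adjusted permutation p = 0.0317, but 0.111 by rho), with -0.36 and -0.49 in batches 1 and 2 and -0.44 after group means were subtracted, but -0.30 without the same libraries. Aldoc had r = 0.53 with the neuron mean (adjusted permutation p = 0.0304), with 0.61 and 0.40 in batches 1 and 2 and 0.54 without the 2 farthest, but 0.15 after group means were subtracted (unadjusted permutation p = 0.485). With the microglia mean Aldoc had r = -0.56 (adjusted permutation p = 0.0266), with -0.62 and -0.41 in the batches and -0.49 without the 2 farthest, but -0.31 after group means were subtracted (unadjusted permutation p = 0.126). The neuron relation of Aldoc thus lay largely between groups, and part of its microglia relation did. Apoe and the microglia mean did not pass, with r = 0.33 (adjusted permutation p = 0.183) and 0.01 after group means were subtracted.

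**Figure D5:**
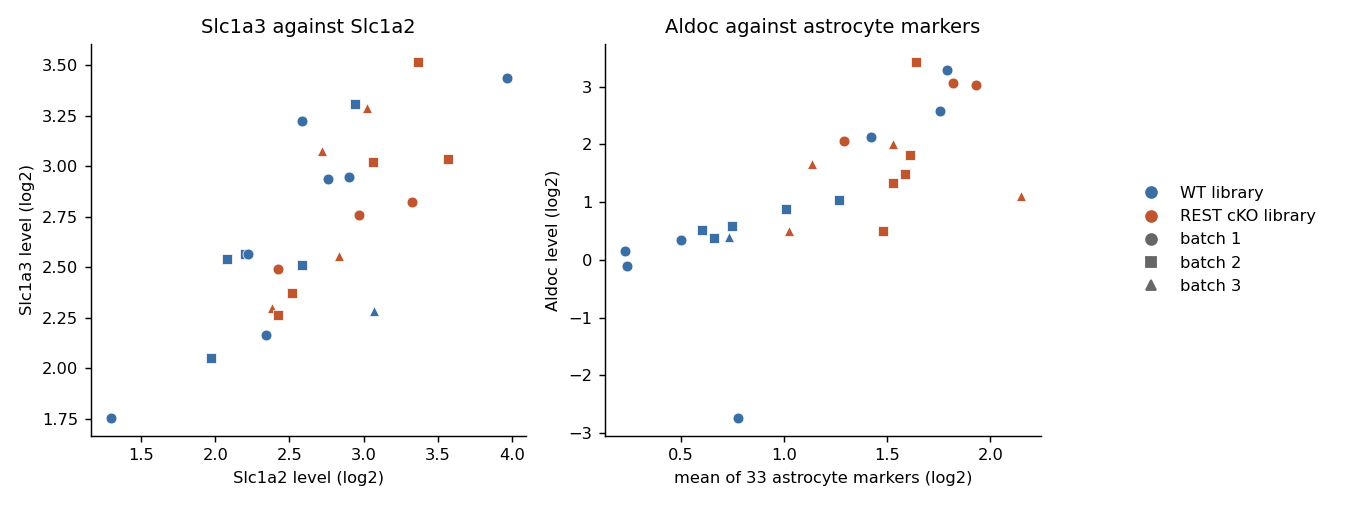
Left, log2 level of Slc1a3 (vertical axis) against that of Slc1a2 (horizontal axis); right, log2 level of Aldoc (vertical axis) against the mean log2 level of 33 astrocyte markers (horizontal axis); each point is 1 of 25 libraries, coloured by genotype and shaped by batch. Points rise together in both panels (r = 0.77 and 0.71), and 1 WT library, WT SCI day 7 replicate 7, lies far below the rest for Aldoc at -2.74.

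By Pearson's r over the 25 libraries, the 3 genes most like Slc1a2 were Dlgap1 (0.82), Gpm6a (0.81) and Prnp (0.79), and Slc1a3 ranked 5 among all genes. For Slc1a3 the 2 most alike were Atp1b2 (0.82), which is 1 of the astrocyte markers, and Cacna1b (0.80). For Glul the 3 most alike were Hnrnpdl (0.77), Tmem44 (0.73) and Lrrfip1 (0.71), for Apoe Grk4 (0.86), Clpb (0.82) and Txndc12 (0.77), and for Aldoc Rnf208 (0.85), Zcchc18 (0.78) and Prnp (0.76). The same libraries enter each of these values, so they are given as a description.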

How the data were processed

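Cells sorted as infected neurons were sequenced by the authors with a 3′ mRNA kit (QuantSeq FWD), aligned to mm10 with STAR and quantified with Salmon. The authors scaled the counts with DESeq2, removed unwanted variation, dropped genes without counts in over 50% of samples and regressed out 2 sequencing components. The deposited values are log2 values. Those of 140 genes, Rest among them, still correlate with a component by more than a rounding tolerance of 1e-05, and none of the 5 genes does. Columns of the authors' own limma comparisons (fold changes and p-values) were not used. Of 9955 entries, 24 (0.241%) had no symbol and were left out. Read totals per library are not given in the sources used here, which state an average only.

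Groups came from the sample labels. Differences were fitted over all 25 libraries and 9931 genes with limma 3.58.1 (R 4.3.3, empirical Bayes with trend), with the 8 groups and 2 components as terms, and p-values were adjusted over all genes by the Benjamini-Hochberg method with a threshold of 0.1. The fit was tested on simulated data. Correlations used two-sided permutation tests with 1e+05 resamples (scipy 1.17.1). Singly named were the 5 genes, 10 genes of their pathways or of astrocytes at day 7, the 3 most alike by Pearson's r, and genes past the threshold where there were at most 5. Alternatives changed the components, the samples, batch, sex, depth proxy, library weights, filter, trend, scaling and threshold, or left out 1 library. A few genes that these rules name are not reported here. The members and lists were chosen with earlier results of these data known.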

Additional observations from a re-analysis of the deposited data

Results flagged for a closer look

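For 2 of the 5 genes, every WT library at day 1 after SCI lay on one side of the WT sham mean and every REST cKO library on the other side of the REST cKO sham mean. This held for 11.6% of all genes, and REST cKO has only 2 libraries at day 1. For Apoe the nearest WT library lay 0.0019 from the sham mean, so its place on that side is not resolved. For Apoe the difference of means was -0.15 in WT and 0.63 in REST cKO, which differ by 0.776. For Aldoc it was 1.91 in WT and -1.41 in REST cKO, which differ by -3.33. A genotype by injury interaction at day 1, added after the values were seen, was 0.81 ± 0.27 (SE) for Apoe and -3.60 ± 1.26 for Aldoc, with a limma adjusted p of 0.706 for both. In that interaction 0 genes passed, and 573 had an unadjusted p under 0.05. In 10 sets of 1 gene in 1 group of 4 libraries, 0 held a library that stood apart, where chance alone would mark about 1 in 20 sets. Groups of 2 or 3 libraries were not covered, so WT SCI day 7 replicates 7 (for Aldoc) and 12 (for Apoe) were not tested.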

How the results depend on the processing

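No member passed the threshold in any of 2450 refits, made of 70 values under 35 alternatives each, and the lowest adjusted p was 0.157. Of the 70 values, 52 kept their sign throughout, and 18 changed it in 75 refits. Those 18 include none of the sham genotype differences and none of the day 1 injury differences. Fits within 1 batch were not among the alternatives. For Glul the sham genotype value was 0.26, and its difference of means was 0.38 in batch 1 and -0.47 in batch 2. Its REST cKO day 1 difference from sham was 0.93 in batch 2 and -0.15 in batch 3, with 1 library on each side. Without the components, REST cKO at day 3 against sham was 0.12 for Slc1a2, 0.19 for Slc1a3 and 0.0097 for Glul, and Apoe at day 7 was -0.0485, with the same values when only the groups compared were fitted. With a batch term, Apoe in WT at day 3 was -0.010. With a sex term, REST cKO at day 3 was 0.20 for Slc1a2 and 0.097 for Slc1a3, and REST cKO against WT at day 7 was -0.030 for Slc1a3, 0.33 for Lrp1 and -0.0689 for Clu. With library weights, Slc1a2 in REST cKO at day 7 was -0.00193. After quantile normalization, Apoe in WT at day 3 was -0.035, Aldoc in WT at day 7 was 0.37, Slc1a2 and Apoe in REST cKO at day 7 were -0.0024 and -0.20, and S100b between genotypes at day 7 was -0.34. Leaving out 1 library in turn gave these ranges where a sign changed. In WT against sham they were -0.11 to 0.18 (Apoe, day 3), -0.0056 to 0.70 (Aldoc, day 3), -0.46 to 0.045 (Apoe, day 7) and -1.54 to 1.21 (Aldoc, day 7). In REST cKO against sham at day 3 they were -0.27 to 0.10 (Slc1a2), -0.16 to 0.12 (Slc1a3) and -0.22 to 0.051 (Glul). At day 7 they were -0.16 to 0.24 (Slc1a2), -0.0022 to 0.35 (Slc1a3), -0.24 to 0.050 (Glul), -0.16 to 0.30 (Apoe) and -1.32 to 0.42 (Aldoc, the highest without REST cKO SCI day 7 replicate 13). Between genotypes they were -0.024 to 0.28 (Apoe, day 1), -0.37 to 0.012 (Slc1a2, day 3), -0.027 to 0.30 (Slc1a3, day 7) and -0.0059 to 0.20 (Slc1a3, mean of the 3 days). The other genes at day 7 gave -0.23 to 0.45 (Glud1), -0.16 to 0.023 (Lrp1), -0.11 to 1.13 (Clu), -0.34 to 0.10 (Aldoa) and -0.80 to 1.73 (S100b). The interaction at day 7 ran from -0.091 to 0.55 (Apoe) and from -2.34 to 0.99 (Aldoc). The cause of these changes was not tested. Counts over all genes also moved. WT at day 1 against sham went from 0 to 24 with library weights, and WT at day 7 from 0 to 5 without components and 7 without WT SCI day 7 replicate 4. REST cKO against WT went from 0 to 15 at day 7 with the share of values under -2 as a term and to 21 without WT SCI day 7 replicate 4. In sham it went from 3 to between 0 and 9, the highest after quantile normalization, and to 13 without REST cKO sham replicate 23. Without that library REST cKO against its sham gave 3 calls in place of 0 (day 1), 12 in place of 2 (day 3) and 7 in place of 0 (day 7). The interaction at day 7 went from 2 to between 0 and 6. No paired analysis was possible because the groups share no replicate numbers. Read totals per library are not given in the sources used here, so the limit that depth sets on each value could not be computed.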
